A study of Mus musculus with 6 samples.

Results

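The axon guidance ligands and receptors were the genes of the semaphorin, plexin, ephrin, Eph, Slit, Robo, netrin and Unc5 families, taken by gene symbol, and they made up 66 of the 20325 genes measured by RNA-seq. Of these 66 genes, 35 encode ligands and 31 encode receptors, and 50 had a mean normalized value of at least 10 over the 6 libraries and were tested. All libraries came from C3H10T1/2 cells, a mouse embryo mesenchymal line able to form several connective tissues, kept at passage 10 to 15 in medium with 10% serum and described in the labels as parental cells. Control cells (3 libraries) received scramble siRNA, and knockdown cells (3 libraries) received siRNA against both Ring1a and Ring1b, with no time after transfection stated in the labels. The question was how knockdown of these 2 genes changes transcript levels in mesenchymal progenitors.

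RING1A (gene Ring1) and RING1B (gene Rnf2) are the catalytic subunits of Polycomb repressive complex 1, which marks histone H2A with ubiquitin and is known to hold developmental genes at a low level. Guidance cues were named for steering axons, but the same molecules are used by mesenchymal, vascular and bone cells for migration, spacing and contact repulsion. Semaphorins signal through plexins, secreted class 3 semaphorins mostly with a neuropilin coreceptor, ephrins signal at cell contacts through Eph receptor kinases, Slits through Robo receptors, and netrins through DCC, neogenin or the Unc5 receptors.

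Rnf2 measured 815, 829 and 799 in controls 1 to 3 and 129, 76.5 and 152 in knockdowns 1 to 3, and fell by 2.82 on the log2 scale (standard error 0.28, limma adjusted p = 0.00946). Ring1 measured 336, 386 and 374 in the controls and 162, 268 and 186 in the knockdowns. Its groups did not overlap, and its log2 fold change was -0.86 (0.23, adjusted p = 0.104), or -1.06 (0.10, adjusted p = 3.86e-06) without knockdown replicate 2. Among the libraries, knockdown replicate 2 was unlike the rest. Its log2 profile correlated at 0.821 to 0.867 with the others, while all other pairs correlated at 0.944 to 0.993, and its depth estimated from the steps of the values was about 4580480 reads, against 5446630 to 51789700 in the others. It also held less signal from long transcripts, so results of the guidance genes are given with and without it. Markers of mesenchymal cells were above the level of 3 reads in every library for 9 of 9 genes, with summed values of 410934 to 434407 in controls and 304134 to 460599 in knockdowns. Single markers moved in both directions. Vim measured 112656 to 117413 in controls and 60681, 109659 and 61907 in knockdowns 1 to 3. Pdgfra (4262 to 5113 against 731 to 2488), Pdgfrb and Col3a1 were also lower in every knockdown. Thy1 (428 to 500 against 700 to 1003) and Twist1 (380 to 401 against 523 to 702) were higher in every knockdown, and Col1a1, Col1a2 and Prrx1 overlapped.

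With all 6 libraries, 1 of the 50 tested guidance genes rose (2.0%, against 3.2% of all 12085 tested genes) and 3 fell (6.0%, against 1.78%), at a limma adjusted p under 0.05. Together these were 8.0% of the guidance genes, against 4.98% of all tested genes, and 22 of the 50 had an unadjusted p under 0.05. The genes that fell were the plexins Plxnb3 and Plxnb1 and the class 3 semaphorin Sema3e, and the gene that rose was the netrin Ntn3. With control 1, 2 or 3 or knockdown 1 left out, none of the 4 passed, the limma adjusted p lying between 0.0578 and 0.179, and without knockdown 3 Plxnb1 (0.0456) and Plxnb3 (0.0386) did. The median log2 fold change over the 50 genes was 0.02, against 0.01 over all tested genes, and 26 of them were above 0 and 24 below. In 12 guidance genes every knockdown was above every control and in 17 every knockdown was below every control, against 20.5% and 23.7% of all tested genes. A log2 fold change of at least 1 in either direction together with groups that did not overlap was seen in 12 guidance genes (24.0%, against 12.5% of all tested genes). The libraries are bulk RNA, in which fewer cells of a type and less RNA per cell cannot be told apart.

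**Figure D1:**
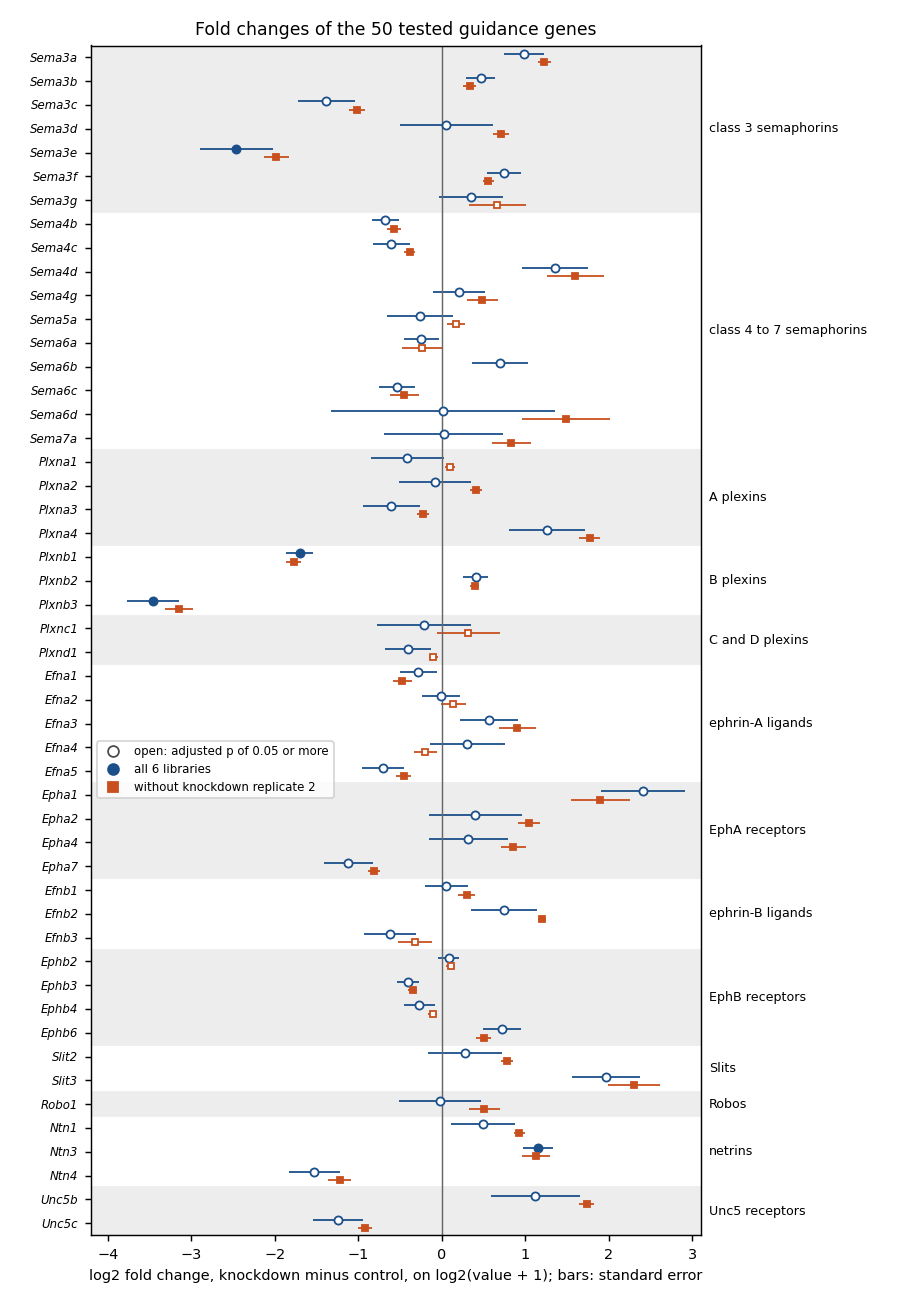
Log2 fold change (knockdown minus control, on log2 of the normalized value plus 1) of the 50 tested guidance genes by family, with all 6 libraries (circles) and without knockdown replicate 2 (squares). Bars are standard errors and filled symbols have a limma adjusted p under 0.05: 4 circles are filled, and 38 of 49 squares.

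Without knockdown replicate 2, 24 of 49 tested guidance genes rose (49.0%, against 23.8% of all 11995 genes then tested) and 14 fell (28.6%, against 26.1%), in all 77.6% against 49.9% of all tested genes. The 4 genes called with all 6 libraries were called again in the same direction. The median log2 fold change of the guidance genes was then 0.32, against -0.02 over all tested genes. Of the 24 rises, 14 were in genes whose value in knockdown replicate 2 was not above every control, and in 13 of these it was below every control. Of the 14 falls, 13 were in genes whose value in knockdown replicate 2 was also below every control.

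The promoters of the 4 genes called with all 6 libraries are shown because CpG-rich start sites are the type of sequence at which Polycomb complexes are known to gather. Each is the 250 bases before the first RefSeq start on GRCm38.p6, 5′ to 3′ on the gene's strand, with every CG dinucleotide in capitals. Sema3e lies on the plus strand at chr5:14025026-14025275, Plxnb1 on the plus strand at chr9:109095186-109095435, Plxnb3 on the plus strand at chrX:73756853-73757102 and Ntn3 on the minus strand at chr17:24209388-24209637.
Sema3e: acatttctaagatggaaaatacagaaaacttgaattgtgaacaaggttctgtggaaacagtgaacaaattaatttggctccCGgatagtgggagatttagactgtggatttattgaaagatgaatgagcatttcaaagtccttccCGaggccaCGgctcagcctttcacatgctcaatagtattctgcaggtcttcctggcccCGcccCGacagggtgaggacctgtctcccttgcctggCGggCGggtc
Plxnb1: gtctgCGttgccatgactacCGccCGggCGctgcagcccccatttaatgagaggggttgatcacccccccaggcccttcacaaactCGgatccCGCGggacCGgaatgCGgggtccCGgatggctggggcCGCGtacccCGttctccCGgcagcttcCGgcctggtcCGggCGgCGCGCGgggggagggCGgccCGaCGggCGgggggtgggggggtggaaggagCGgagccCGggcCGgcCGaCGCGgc
Plxnb3: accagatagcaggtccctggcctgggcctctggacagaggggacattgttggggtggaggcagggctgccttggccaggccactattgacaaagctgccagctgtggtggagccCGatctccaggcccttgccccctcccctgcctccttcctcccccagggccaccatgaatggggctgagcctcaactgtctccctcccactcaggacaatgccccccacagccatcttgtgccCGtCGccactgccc
Ntn3: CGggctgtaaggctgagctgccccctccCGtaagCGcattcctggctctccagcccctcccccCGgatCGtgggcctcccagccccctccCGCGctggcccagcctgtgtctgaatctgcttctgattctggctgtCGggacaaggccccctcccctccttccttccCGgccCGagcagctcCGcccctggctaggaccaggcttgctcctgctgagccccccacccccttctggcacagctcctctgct

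The window of Plxnb1 held 30 CG dinucleotides, that of Ntn3 held 11, that of Sema3e held 7 and that of Plxnb3 held 3. The motif searched was CG, which reads the same on both strands and cannot overlap itself. Of the 66 guidance genes 57 matched a promoter in the table, and the 43 tested ones held 2 to 39 CG with a median of 17, against a median of 16 over 8631 tested genes with a promoter. At least 10 CG were found in 33 of these 43 windows (76.7%), in 75.8% of the windows of the 8631 tested genes and in 37.8% of all 32851 promoters of the same length, untested genes included, and at least 1 in 92.1% of all promoters. The called guidance genes therefore came from both CG-rich and CG-poor windows. These are descriptions of the letters, and no binding or histone mark was measured here.

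Class 3 semaphorins are secreted ligands, and all 7 were tested. With all 6 libraries 1 fell and none rose, against 1.78% and 3.2% of all tested genes, and without knockdown replicate 2, 4 rose and 2 fell, against 23.8% and 26.1%. The same shares of all tested genes stand behind the counts of the other families. Sema3e, the ligand of plexin D1 known for repelling vessels and axons, measured 217, 203 and 162 in the controls and 48.2, 17.1 and 47.7 in the knockdowns. Every knockdown was below every control and the mean was 5.15-fold lower, from 194 ± 28.8 to 37.7 ± 17.8 (SD, n = 3). Sema3e fell by 2.46 on the log2 scale (standard error 0.44, limma adjusted p = 0.0383), and by 1.98 (0.15, adjusted p = 7.57e-07) without knockdown replicate 2.

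Sema3c, a ligand used in outflow tract development, measured 1818, 1411 and 1529 in the controls and 766, 361 and 799 in the knockdowns. The groups did not overlap and the mean was 2.47-fold lower. Its log2 fold change of -1.38 (0.34) had an adjusted p of 0.0927 with all 6 libraries, and of -1.01 (0.09) one of 1.86e-05 without knockdown replicate 2. Sema3a, the classical collapsin that repels growth cones, was on the other side, at 395, 403 and 347 in the controls and 867, 544 and 917 in the knockdowns. Every knockdown was above every control, the mean was 2.03-fold higher, and the limma adjusted p was 0.0877 with all 6 libraries and 2.13e-07 without knockdown replicate 2. Sema3f, which acts mainly through neuropilin-2, had the highest level per kb of transcript in this class. It measured 1156, 1195 and 1305 in the controls and 1859, 2645 and 1728 in the knockdowns, with adjusted p values of 0.109 and, without knockdown replicate 2, 2.01e-05.

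The makeup of the class 3 signal per kb therefore differed between groups. Sema3f made up 37.2 to 42.5% of the summed class 3 value per kb in the controls and 49.9 to 68.2% in the knockdowns. Sema3c made up 29.9 to 36.1% in the controls and 5.76 to 14.3% in the knockdowns. In both cases the ranges of the groups did not overlap, with knockdown replicate 2 at the far end each time. The longest transcript is shorter in Sema3f (3395 nt) than in Sema3c (5491 nt), and the part of length in the shares of that library was not tested. Sema3b (log2 fold change 0.47, adjusted p = 0.211), Sema3d (0.05, 0.954) and Sema3g (0.35, 0.573) did not pass with all 6 libraries. In the fit without knockdown replicate 2, Sema3b (0.33, adjusted p = 0.00377) and Sema3d (0.71, 7.8e-05) passed as higher and Sema3g (0.66, 0.128) did not. Sema3d measured 253, 223 and 258 in the controls and 424, 102 and 377 in the knockdowns, so that knockdown replicate 2 lay below and the other knockdowns above the controls.

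Class 4 to 7 semaphorins are membrane-bound or, for Sema7a, lipid-anchored, and 10 of 13 were tested. None passed with all 6 libraries (4 had an unadjusted p under 0.05), and without knockdown replicate 2, 4 of 9 rose and 3 fell, against 23.8% and 26.1% of all tested genes. Sema4d, the ligand of plexin B1 known for signalling to osteoblasts, measured 16.8, 17.5 and 8.13 in the controls and 45.2, 25.5 and 40.5 in the knockdowns. The groups did not overlap and the mean was 2.62-fold higher, at a level low enough that the 25.5 of knockdown replicate 2 stands for few reads, its level of 3 reads being 12.8. The log2 fold change was 1.36 (0.40, limma adjusted p = 0.131), and 1.60 (0.34, adjusted p = 0.00195) without knockdown replicate 2.

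Sema4b and Sema4c were lower in every knockdown than in any control. Sema4b measured 348, 325 and 318 in the controls and 222, 178 and 221 in the knockdowns (log2 fold change -0.68, adjusted p = 0.0826). Sema4c, the most abundant of these genes per kb, measured 640, 609 and 615 in the controls and 491, 302 and 461 in the knockdowns (-0.60, adjusted p = 0.208). Both passed the test as lower without knockdown replicate 2, as did Sema6c (log2 fold change -0.45, adjusted p = 0.0465). Sema4g, Sema6d and Sema7a passed as higher there, and in each of these knockdown replicate 2 lay below every control. Sema6d was at 0 in knockdown replicate 2, where the level of 3 reads was above all 3 control values. Sema5a, Sema6a and Sema6b did not pass in any of these fits in which they were tested.

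The A plexins are receptors for class 3 semaphorins with a neuropilin, or for class 6 semaphorins directly, and all 4 were tested. None passed with all 6 libraries (1 had an unadjusted p under 0.05), and without knockdown replicate 2, 2 rose and 1 fell. Plxna4 measured 76.1, 75.2 and 88.5 in the controls and 273, 93.5 and 277 in the knockdowns. Every knockdown was above every control, but replicate 2 only by a small margin. The log2 fold change was 1.26 (0.45, limma adjusted p = 0.20), and 1.77 (0.13, adjusted p = 4.46e-07) without that library. Plxna1, the most abundant A plexin per kb, measured 3328, 3646 and 3420 in the controls and 3530, 1288 and 3866 in the knockdowns, and had log2 fold changes of -0.41 with and 0.09 without replicate 2, neither of which passed. Plxna2 had a log2 fold change of -0.08 (adjusted p = 0.915) with it and 0.41 (0.000627) without it, and Plxna3 one of -0.60 (0.367) with it and -0.23 (0.0228) without it.

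Among the A plexins the shares of Plxna1, Plxna2 and Plxna4 in the summed value per kb were alike in the 3 knockdowns. Plxna1 made up 53.1 to 54.0% in the controls and 47.7 to 49.9% in the knockdowns, Plxna2 31.8 to 34.4% and 38.0 to 39.0%, and Plxna4 0.768 to 0.963% and 2.43 to 2.67%. In these shares knockdown replicate 2 lay beside the other knockdowns, although its values of Plxna1 and Plxna2 were the lowest of the 6 libraries.

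Plexins B1 and B2 are receptors of class 4 semaphorins, and 2 of the 3 B plexins fell with all 6 libraries. Plxnb3 measured 148, 168 and 163 in the controls and 15.8, 8.5 and 18.5 in the knockdowns. No library of one group came near the other, and the mean was 11.2-fold lower, from 160 ± 10.2 to 14.3 ± 5.17 (SD, n = 3). The value in knockdown replicate 2 was under its level of 3 reads, so the depth of that library sets no firm lower level. Plxnb3 fell by 3.46 on the log2 scale (standard error 0.31, limma adjusted p = 0.00886), with a log2 fold change of -3.15 (0.17, adjusted p = 4.67e-08) without that library.

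Plxnb1, the receptor of Sema4d, measured 1106, 1140 and 1059 in the controls and 287, 374 and 361 in the knockdowns. The groups lay far apart, the mean was 3.23-fold lower, from 1102 ± 40.8 to 341 ± 47.0, and knockdown replicate 2 was the highest of the 3 knockdowns. Plxnb1 fell by 1.70 (0.16, limma adjusted p = 0.00904), and by 1.77 (0.09, adjusted p = 5.85e-08) without knockdown replicate 2. Plxnb2, the plexin with the highest level per kb of all guidance genes, did not fall with them. It measured 7706, 7696 and 7685 in the controls and 10105, 10389 and 10113 in the knockdowns, a mean 1.33-fold higher, with a limma adjusted p of 0.206, and of 5.2e-05 without knockdown replicate 2. Plxnb2 made up 88.1 to 88.8% of the summed B plexin value per kb in the controls and 97.2 to 97.8% in the knockdowns, and Plxnb1 9.19 to 9.81% and 2.08 to 2.63%.

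**Figure D2:**
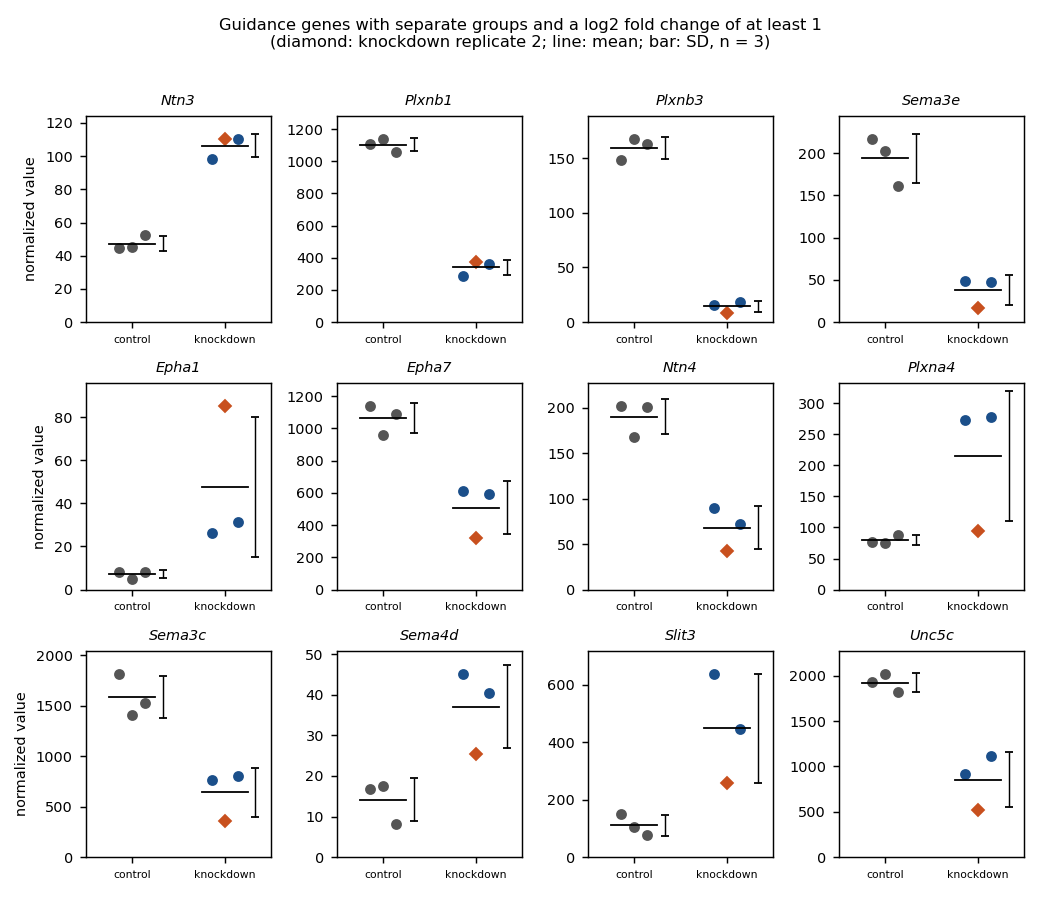
Normalized value per library of the 12 guidance genes whose groups did not overlap and whose log2 fold change was at least 1 in size (points: libraries; diamonds: knockdown replicate 2; lines: means; bars: SD, n = 3). The top row holds the 4 genes with a limma adjusted p under 0.05, Ntn3 higher and Plxnb1, Plxnb3 and Sema3e lower in the knockdowns.

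Plxnc1, a receptor of Sema7a, and Plxnd1, the receptor of Sema3e, passed in neither fit. Plxnd1 measured 1954, 2122 and 2025 in the controls and 1931, 1016 and 1854 in the knockdowns. Its log2 fold change was -0.40 (0.28, limma adjusted p = 0.437). Without knockdown replicate 2 it was -0.10 (0.05, adjusted p = 0.135), beside a fall of 1.98 in its ligand Sema3e. Plxnc1 was near the testing limit, at 4.25 to 17.5 over the 6 libraries.

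The ephrin-A ligands are anchored to the membrane by lipid, and none of the 5 passed with all 6 libraries (1 had an unadjusted p under 0.05). Without knockdown replicate 2, Efna3 passed as higher (log2 fold change 0.91, limma adjusted p = 0.00559) and Efna1 (-0.48, 0.00425) and Efna5 (-0.46, 0.000862) as lower. Efna5 was lower in every knockdown, at 516, 470 and 450 in the controls and 369, 208 and 328 in the knockdowns. Efna4 measured 208, 188 and 203 in the controls and 204, 493 and 149 in the knockdowns, so that knockdown replicate 2 alone was high. It and Efna2 passed in neither fit.

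Of the 9 EphA receptors, which bind mainly ephrin-A ligands, 4 were tested, none passed with all 6 libraries (2 had an unadjusted p under 0.05), and without knockdown replicate 2, 3 rose and 1 fell. Epha7 measured 1137, 957 and 1091 in the controls and 613, 319 and 593 in the knockdowns. The groups did not overlap, the mean was 2.09-fold lower, and the limma adjusted p was 0.0998 (log2 fold change -1.12) with all 6 libraries and 3.51e-06 (-0.81) without replicate 2. Epha7 held 65.4 to 73.6% of the summed EphA value per kb in the controls, where it led, and 36.0 to 41.6% in the knockdowns. In knockdowns 1 and 3 Epha2 led instead, with 47.1 and 52.3%.

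Epha1 measured 8.29, 5.01 and 8.10 in the controls and 26.4, 85.0 and 31.3 in the knockdowns. Every knockdown was above every control and the mean was 6.67-fold higher, with knockdown replicate 2 the highest of all. Without that library the mean was 4.04-fold higher. The 5.01 of control 2 was under its level of 3 reads, 7.52, while controls 1 and 3 were above theirs, 0.777 and 2.71. The log2 fold change was 2.41 (0.51, limma adjusted p = 0.0597), and 1.90 (0.35, adjusted p = 0.000859) without replicate 2. Its exons overlap those of Zyx on the opposite strand in GENCODE M21, and Zyx, which encodes the focal adhesion protein zyxin, rose from 3604, 4236 and 4243 to 9424, 10695 and 9377 (log2 fold change 1.29, adjusted p = 0.0154, and 1.23, 1.37e-07, without replicate 2). Whether the counting used strand is not known here, and without strand the reads from the shared stretch cannot be told apart. The extent of that stretch was not measured. Epha2, a receptor often abundant in epithelia, measured 185, 238 and 240 in the controls and 413, 119 and 500 in the knockdowns, and Epha4, a receptor that binds both ephrin classes, 65.9, 72.7 and 58.7 and 121, 38.3 and 118. In both genes replicates 1 and 3 were above and replicate 2 below every control.

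The ephrin-B ligands span the membrane and can signal back into their own cell, and none of the 3 passed with all 6 libraries (0 had an unadjusted p under 0.05). Efnb2, the ligand of EphB4 and a marker of arterial endothelium, measured 1247, 1193 and 1186 in the controls and 2793, 1084 and 2767 in the knockdowns. Knockdowns 1 and 3 were alike and far above the controls, and replicate 2 was below them. The log2 fold change was 0.75 (0.39, limma adjusted p = 0.341) with all 6 libraries and 1.2 (0.05, adjusted p = 9.41e-09) without replicate 2, when the mean was 2.30-fold higher. As a share of the summed ephrin-B value per kb, Efnb2 was at 62.3 to 68.2% in the controls and 70.9 to 79.0% in the knockdowns, replicate 2 included. Efnb1 passed as higher without replicate 2 (0.30, adjusted p = 0.0307), and Efnb3 passed in neither fit.

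Of the 5 EphB receptors 4 were tested, and none passed with all 6 libraries (2 had an unadjusted p under 0.05). The most abundant per kb were Ephb4 and Ephb3, at 544 and 461 in the control means. Ephb4 measured 2332, 2458 and 2287 in the controls and 2227, 1556 and 2153 in the knockdowns, every knockdown being below every control (log2 fold change -0.27, limma adjusted p = 0.431). It did not pass without replicate 2 either, at -0.11 (0.05, adjusted p = 0.113), beside the rise of its ligand Efnb2 there. Ephb3 was lower in every knockdown (2273, 2120 and 2176 against 1771, 1522 and 1677) and passed without replicate 2, at -0.34 (0.05, adjusted p = 0.000233). Ephb6, whose kinase domain is inactive, was higher in every knockdown (446, 388 and 397 against 631, 914 and 536) and passed there at 0.50 (0.09, adjusted p = 0.000619). Ephb2 was nearly level, at 743 to 756 in the controls and 770 to 812 in the knockdowns, and passed in neither fit.

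Slits are large secreted ligands, and 2 of 3 were tested, of which none passed with all 6 libraries (1 had an unadjusted p under 0.05). Slit3 measured 150, 105 and 77.7 in the controls and 639, 259 and 445 in the knockdowns. Every knockdown was above every control, and the mean was 4.04-fold higher, from 111 ± 36.3 to 448 ± 190 (SD, n = 3). The spread within each group was wide, and the log2 fold change of 1.96 (0.41) had a limma adjusted p of 0.0570. Without knockdown replicate 2 it was 2.31 (0.31, adjusted p = 0.00217). Slit2, the Slit with the higher level per kb, measured 1174, 1275 and 1217 in the controls and 1923, 735 and 2297 in the knockdowns. Its log2 fold change was 0.28 (0.44, adjusted p = 0.696) with all 6 libraries and 0.78 (0.07, adjusted p = 6.15e-06) without replicate 2, the library that lay below the controls. Slit3 made up 10.8 to 19.5% of the summed Slit value per kb in the controls and 26.9 to 39.7% in the knockdowns. The 39.7% was in replicate 2, and the longest transcript is shorter in Slit3 (5228 nt) than in Slit2 (9960 nt). The part of length in that share was not tested.

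Their receptors were scarce. Robo1 was the 1 tested Robo of 4, at 107, 70.2 and 98.5 in the controls and 140, 42.5 and 119 in the knockdowns (log2 fold change -0.02, limma adjusted p = 0.983, and 0.51, adjusted p = 0.0375, without replicate 2). Its level per kb was 12.2 in the control mean, against 123 for Slit2. Robo2 was under the limit for testing, at 2.33, 0 and 1.81 in the controls and 5.65, 12.8 and 9.24 in the knockdowns. Its knockdown values were all above the controls, and with no filter on low values its log2 fold change of 2.22 had an adjusted p of 0.109. Robo4, an endothelial receptor, was at 0 in all 6 libraries.

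Netrins are laminin-like secreted cues, and 3 of 4 were tested. Ntn3 measured 44.5, 45.1 and 52.4 in the controls and 98.4, 111 and 110 in the knockdowns. Every knockdown was above every control, and replicate 2 lay with the other knockdowns. The mean was 2.25-fold higher, from 47.3 ± 4.38 to 106 ± 6.91 (SD, n = 3), and Ntn3 rose by 1.15 on the log2 scale (0.17, limma adjusted p = 0.0245) and by 1.12 (0.17, adjusted p = 0.000166) without replicate 2. Its exons overlap those of Tbc1d24 on the same strand in GENCODE M21, so estimated counts of these genes could be split between them. Tbc1d24 measured 639, 553 and 570 in the controls and 527, 196 and 543 in the knockdowns, all below the controls (log2 fold change -0.61, adjusted p = 0.436, and -0.13, 0.169, without replicate 2).

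Ntn4, a netrin of basement membranes, measured 202, 168 and 201 in the controls and 89.9, 42.5 and 72.5 in the knockdowns. The groups did not overlap and the mean was 2.79-fold lower. The log2 fold change was -1.53 (0.31, limma adjusted p = 0.0532), just outside the threshold, and -1.22 (0.14, adjusted p = 2.11e-05) without replicate 2. Ntn1, the founding axon attractant and the most abundant netrin per kb, measured 518, 506 and 513 in the controls and 936, 395 and 1018 in the knockdowns. Its log2 fold change was 0.49 (0.38, adjusted p = 0.470) with all 6 libraries and 0.93 (0.06, adjusted p = 3.71e-07) without replicate 2. Ntn4 made up 31.7 to 36.0% of the summed netrin value per kb in the controls and 9.23 to 12.02% in the knockdowns.

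Unc5 receptors mediate repulsion by netrins, and 2 of 4 were tested, of which none passed with all 6 libraries (1 had an unadjusted p under 0.05). Unc5b measured 1352, 1736 and 1570 in the controls and 5061, 1428 and 5224 in the knockdowns. Knockdowns 1 and 3 lay far above the controls and replicate 2 within their range. The log2 fold change was 1.12 (0.53, limma adjusted p = 0.303) with all 6 libraries and 1.73 (0.09, adjusted p = 5.82e-07) without replicate 2, when the mean was 3.31-fold higher. Unc5c was lower in every knockdown than in any control, at 1929, 2022 and 1817 in the controls and 921, 519 and 1116 in the knockdowns. Its log2 fold change was -1.24 (0.30, adjusted p = 0.0877), and -0.92 (0.08, adjusted p = 3.97e-06) without replicate 2.

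The balance of the 2 Unc5 genes differed between groups in every library. Unc5b made up 53.5 to 58.7% of the summed Unc5 value per kb in the controls and 81.6 to 89.9% in the knockdowns, and Unc5c 41.3 to 46.5% and 9.96 to 18.0%. Replicate 2, at 81.6%, was nearer to the other knockdowns than to the controls in this share, although its value of Unc5b alone was not above the controls. Replicate 2 held less signal from long transcripts. Unc5c is longer than Unc5b by the longest transcript (9646 against 5869 nt) and shorter by the median (3890 against 4761 nt). The part of transcript length in the share of replicate 2 was not tested.

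**Figure D3:**
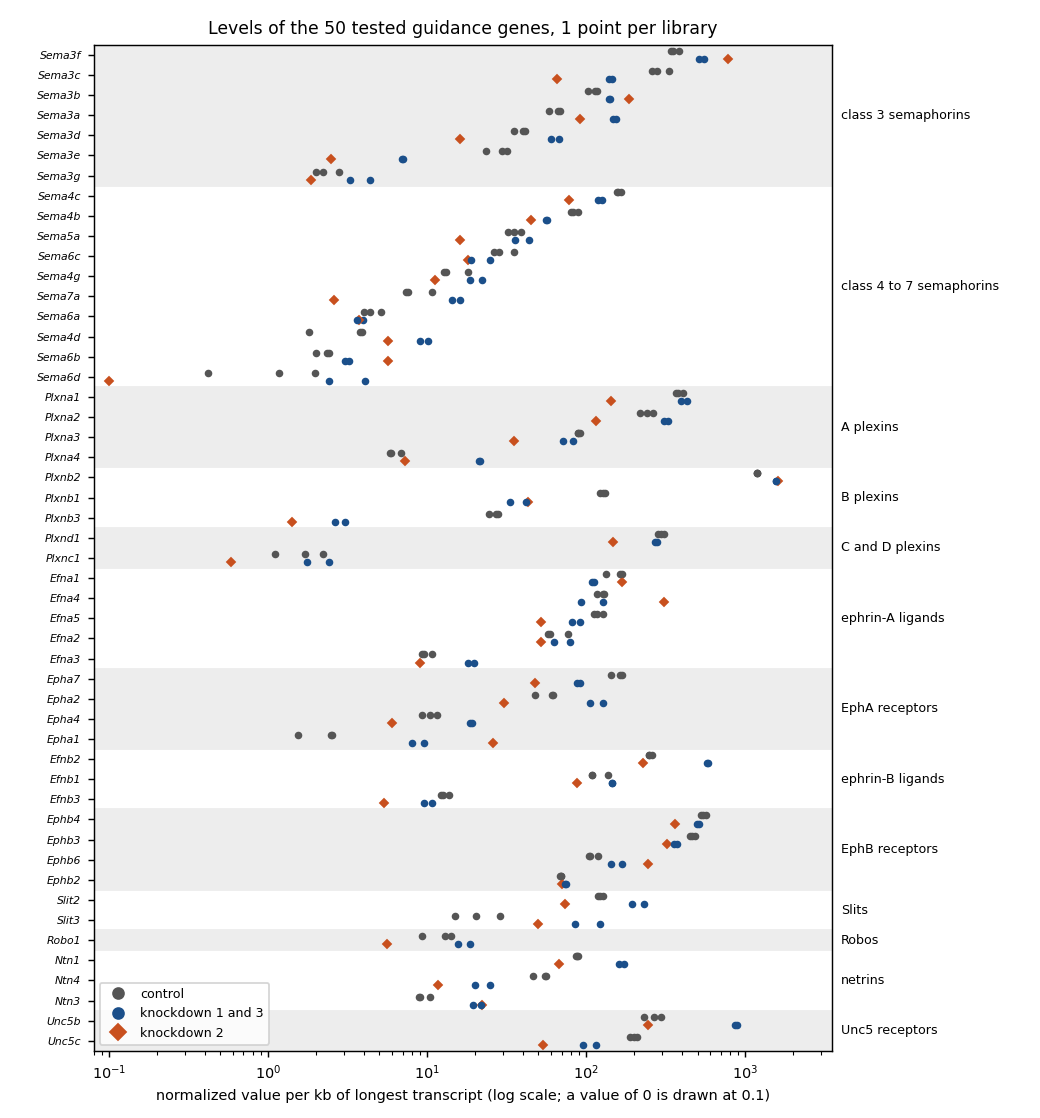
Normalized value per kb of longest protein-coding transcript, 1 point per library on a log axis, for the 50 tested guidance genes by family. Plxnb2 is the highest, at a control mean of 1185, and the diamonds of knockdown replicate 2 lie left of the other knockdowns in 39 of 50 genes.

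Per kb of transcript, the order of the control means began with Plxnb2 (1185 ± 1.60, SD, n = 3), followed by Ephb4 (544), Ephb3 (461), Plxna1 (384) and Sema3f (359). The first 3 were separate from one another in every library, while the library ranges of Plxna1 and Sema3f overlapped. The family leaders further down were Plxnd1 (294), Unc5b (265), Efnb2 (252), Sema4c (160), Epha7 (157), Efna1 (155), Slit2 (123), Ntn1 (87.2) and Robo1 (12.2). The library ranges of Plxnd1, Unc5b and Efnb2 overlapped in a chain, as did those of Sema4c, Epha7 and Efna1, so no order within these sets can be read. With the median transcript length in place of the longest, the leader was Plxnb1 among B plexins, Ephb3 among EphB, Efna5 among ephrin-A, Ntn4 among netrins and Unc5c among Unc5 genes.

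The 16 guidance genes that were not tested were Epha3, Epha5, Epha6, Epha8, Epha10, Ephb1, Ntn5, Robo2, Robo3, Robo4, Sema4a, Sema4f, Sema5b, Slit1, Unc5a and Unc5d. Their highest mean over the 6 libraries was 5.30 and their highest single value 12.8. In 8 of them no library was above its level of 3 reads, so that a difference was not detectable at this depth. None of the 15 with any reads passed by limma when the filter was lifted, and only Robo2 had an unadjusted p under 0.05 there.

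**Figure D4:**
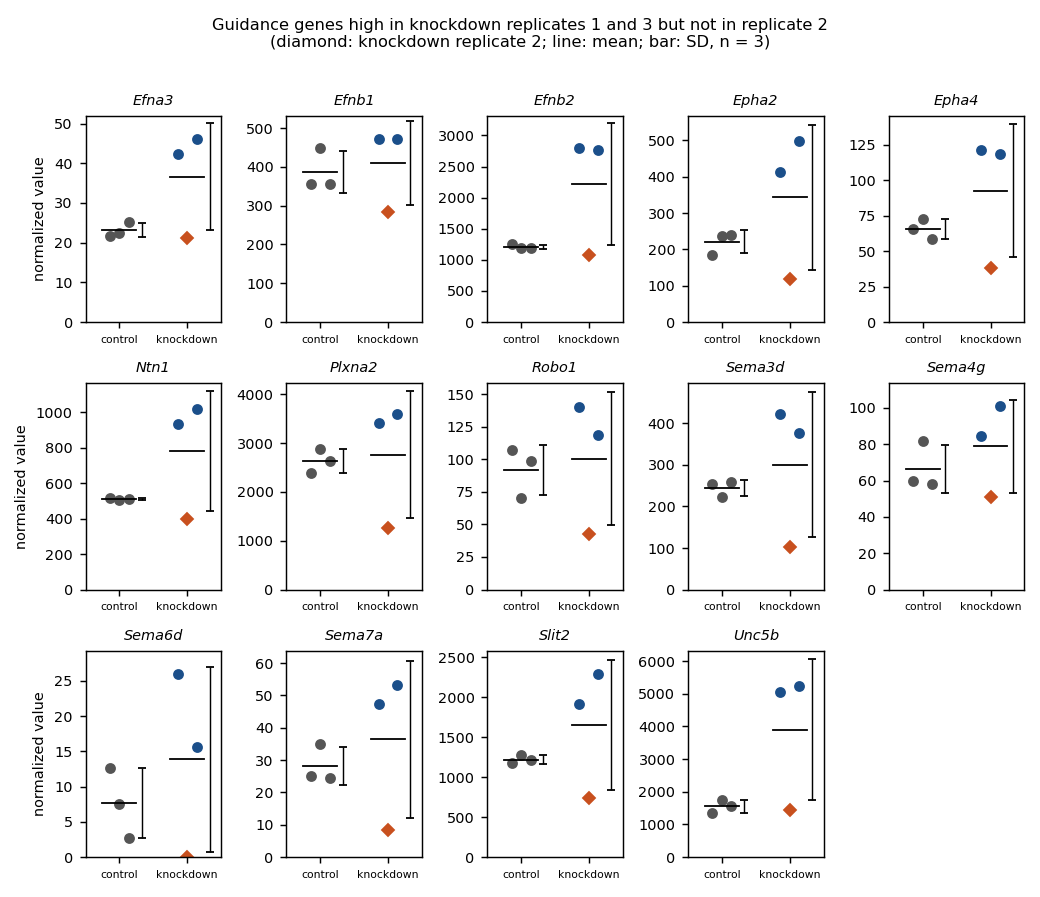
Normalized value per library of the 14 guidance genes that passed as higher without knockdown replicate 2 and whose value in that library (diamond) was not above every control (lines: means; bars: SD, n = 3). In 13 the diamond is below every control, and in Unc5b it is within the control range.

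Knockdown replicate 2 differed from the other knockdowns in a way that followed transcript length, and guidance genes are long. The longest protein-coding transcript had a median of 5133 nt over the 50 tested guidance genes, against 3204 nt over all tested genes with a length. On the log2 scale, replicate 2 minus the mean of replicates 1 and 3 had a median of -0.90 over the guidance genes (-4.41 to 1.53), against -0.11 over all tested genes. With all genes in 4 equal classes from the shortest to the longest, this median was 1.10, 0.11, -0.37 and -0.96, and the classes held 2, 3, 17 and 28 guidance genes with medians of 1.04, -0.89, -0.65 and -1.21. In each class the guidance median was the lower one. The part of length in the low values of guidance genes in replicate 2 was not tested. Replicate 2 was lower than both other knockdowns in 39 of 50 guidance genes and in 51.2% of all tested genes. Knockdowns 1 and 3 differed from each other by a median of 0.14 in size over the guidance genes. With a correction for the trend with median length in each library 6 guidance genes rose and 7 fell, against 5.32% and 3% of all genes.

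**Figure D5:**
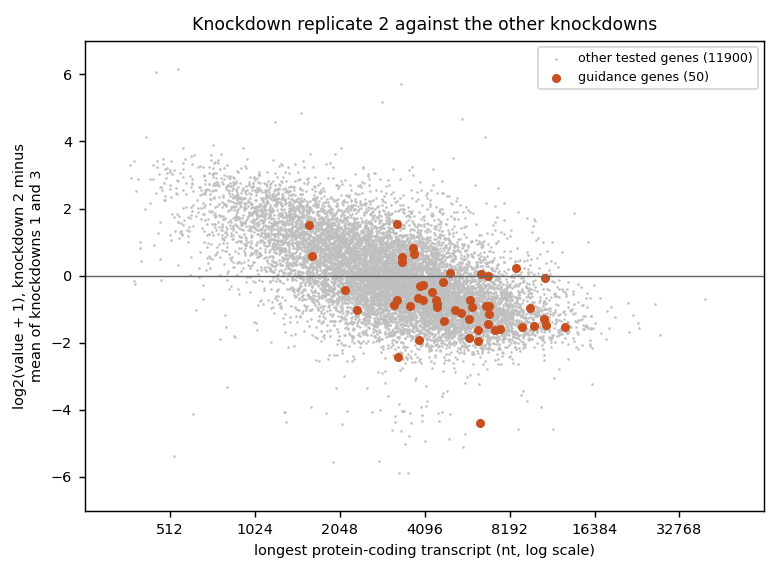
Difference between knockdown replicate 2 and the mean of knockdowns 1 and 3, on log2 of the normalized value plus 1, against the longest protein-coding transcript in nt on a log axis, 1 point per tested gene with a length. The 50 guidance genes (large points) lie mostly at long transcripts and have a median difference of -0.90.

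By role, 30 tested ligands held 1 rise (3.33%) and 1 fall (3.33%) and 20 tested receptors held no rise and 2 falls (10.0%) with all 6 libraries. Of all tested genes 3.2% rose and 1.78% fell there, and these counts are too small to set the roles apart. Without knockdown replicate 2, 15 ligands rose and 8 fell of 29, and 9 receptors rose and 6 fell of 20, against 23.8% rises and 26.1% falls over all tested genes. The summed value of all 66 guidance genes was 0.282 to 0.289% of each control library's total. It was 0.356 and 0.360% in knockdowns 1 and 3, and 0.160% in knockdown replicate 2.

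The coreceptors and intracellular effectors of these pathways were read from a list of 62 genes. Of these, 61 were in the table and 50 were tested, of which 2 rose (4.0%, against 3.2% of all tested genes) and none fell by limma (9 of the 50 had an unadjusted p under 0.05 in either direction). The median log2 fold change was -0.26, and without knockdown replicate 2 it was -0.03, with 14 rises and 16 falls (28.0% and 32.0%, against 23.8% and 26.1% of all tested genes). Rnd1, a small GTPase that binds plexins, measured 101, 132 and 122 in the controls and 425, 557 and 437 in the knockdowns, and rose by 1.99 (0.19, adjusted p = 0.00918), or by 1.87 (2.26e-07) without knockdown replicate 2. Crmp1, a member of the collapsin response mediator family that relays Sema3a signals, measured 2.33, 0 and 2.71 in the controls and 79.2, 42.5 and 80.3 in the knockdowns, and rose by 4.83 (0.61, adjusted p = 0.0164), or by 5.13 (1.66e-05) without that library. In both genes the groups were widely separate, knockdown replicate 2 included.

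Of the receptors' partners, named here for their role after their values were seen, the neuropilins Nrp1 and Nrp2 had log2 fold changes of 0.43 (limma adjusted p = 0.366) and -0.75 (0.246) with all 6 libraries. Both passed without knockdown replicate 2, Nrp1 as higher at 0.68 (adjusted p = 1.14e-06) and Nrp2 as lower at -0.42 (0.000242). The netrin receptor Dcc was at 0 in all controls and at 0.565, 4.25 and 2.13 in the knockdowns, at or under the level of 3 reads in each. Neo1, the related receptor neogenin, measured 5792 to 6375 in the controls and 2615 to 5828 in the knockdowns.

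Markers of other cell types differed in part between the groups. Of 7 neuron markers 6 were in the table, and their summed value was 274 to 372 in controls and 513 to 744 in knockdowns, mostly from Stmn2 and Tubb3, with Snap25 at 0 in all libraries. All 5 Schwann and glia markers were in the table, summing to 1804 to 1993 in controls and to 534, 2100 and 446 in knockdowns 1 to 3, mostly from S100b. The 5 endothelial markers summed to 87.7 to 108 in controls and 106 to 157 in knockdowns, nearly all from Tek. Tek measured 106, 87.7 and 90.3 in the controls and 148, 102 and 134 in the knockdowns, so its groups overlapped. Pecam1, Cdh5, Kdr and Emcn were at 0 to 6.22 in all libraries. The part of such cells or programmes in the results above was not tested.

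The authors' deposited table of genes with large fold changes held 4 of the 66 guidance genes, against 323 of all 20325 genes. Its lowest fold at or above 1 was 4.01 and its highest under 1 was 0.242, a limit on fold size. Its fold values, which are ratios of the group means, were 0.0905 for Plxnb3, 0.196 for Sema3e, 4.08 for Slit3 and 6.80 for Epha1. The first 2 passed the test across all genes with all 6 libraries, and Slit3 and Epha1 did not, at adjusted p values of 0.0570 and 0.0597.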

How the data were processed

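RNA from 3 control and 3 knockdown libraries was measured by RNA-seq (Trizol extraction and Illumina TruSeq libraries, per the labels' protocols). The submitters' processing notes name the aligner Bowtie (1.0.0), the quantifier RSEM (1.2.12) and the build mm9. For annotation and strand, the setting is not given in the sources used. The authors deposited a table of 20325 genes whose normalized signal is an RSEM estimated count per gene divided by a factor per library. They also deposited a table of fold values (ratio of group means) for 323 genes. Column totals were 13115800 to 19471600, and the steps of low values gave about 4580480 to 51789700 reads per library. Values up to 20 reads were whole within 0.1 for 88.6 to 90.3%, so no count test was run. The level of 3 reads is 0.777 to 12.8 in normalized units, for counting error alone.

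The 12085 genes whose mean reached 10 were tested with limma 3.58.1 in R 4.3.3 on log2(value + 1), with the trend and robust options, two-sided, with Benjamini-Hochberg adjustment over all tested genes and a threshold of 0.05. Fold changes on this scale understate those of low genes. An exact permutation test of 3 against 3 cannot go below 0.1. The script was tested on simulated data with no deviating library and no trend with length, which therefore cannot speak to the effect of knockdown replicate 2. Separate cultures are not stated for the replicates, and p-values then measure only the spread among the 6 libraries, possibly technical. Levels per kb and lengths use the longest protein-coding transcript per symbol in GENCODE M21, not the median planned, which partial models shorten. Promoters are from RefSeq on GRCm38.p6.

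Genes were named by rule: both targets, every guidance gene past the threshold, those with separate groups and a log2 fold change of at least 1 in size, the highest per kb in each family, and the effector genes past the threshold. Values per library are also given for some guidance genes outside this rule, such as Sema3a, Sema3d, Sema4b, Efna4, Epha2, Epha4 and Ephb6. The guidance genes, the effector and marker lists and the rule were chosen with earlier results of these data known. Alternatives covered the pseudocount, filter, scaling, limma options, library weights, transcript length, a replicate block and leaving out each library.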

Additional observations from a re-analysis of the deposited data

How the results depend on the processing

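Counts of calls depended on the libraries used far more than on the pseudocount, the filter or the scaling. With all 6 libraries 387 genes rose and 215 fell, with 1 and 3 guidance genes and 2 and 0 effector genes among them. Total scaling gave 184 rises and 118 falls over all genes and shifted the median over all genes to -0.14 and over guidance genes to -0.10 (log2). Library weights (estimated gene by gene, since the default estimate did not converge), which gave knockdown replicate 2 a weight of 0.0172, gave 3048 rises and 3254 falls over all genes, 25 and 14 of guidance genes and 14 and 16 of effector genes. Correction for median transcript length gave 636 and 358, 6 and 7, and 5 and 1. Correction for the longest transcript, added after seeing the data, gave 809 and 528, 9 and 7, and 5 and 1. Without the trend and robust options 2 guidance genes rose, and with a mean of at least 50 1 effector gene rose.

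Leaving out 1 library at a time gave 0 to 2855 rises and 0 to 3136 falls over all genes, 0 to 24 rises and 0 to 14 falls of guidance genes, and 0 to 14 rises and 0 to 16 falls of effector genes. The upper ends came without knockdown replicate 2. Without any 1 control no gene passed by limma, while 1475 to 1529 had an unadjusted p under 0.05. The labels state no pairing by replicate number. Deviations from the group mean correlated at 0.17, -0.0506 and -0.0507 for same-numbered libraries and at -0.172 to 0.113 for the other pairs. These values cannot settle whether samples were paired, because knockdown replicate 2 dominates the deviations of the knockdowns. With the replicate number as a block 0 genes rose and 0 fell over all genes, guidance genes and effector genes, with 1866 genes at an unadjusted p under 0.05.

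All 4 called guidance genes kept their direction in every alternative. None passed with the block (adjusted p 0.10 to 0.144) or without any 1 control or knockdown replicate 1 (0.0578 to 0.179). Ntn3 and Sema3e also did not pass under total scaling (0.0918 and 0.0957) or without knockdown replicate 3 (0.101 and 0.0845), and Plxnb1 did not pass after the longest-transcript correction (-1.26, adjusted p 0.0783). Epha1 passed under total scaling (0.0494), without the trend and robust options (0.0457), with library weights (6.87e-05) and after the longest-transcript correction (0.0377). Ntn4 passed with a pseudocount of 5 (0.0497), without the trend and robust options (0.0453) and with library weights (5.45e-06). It also passed after the median (0.0390) and longest-transcript (0.0188) length corrections. After the median length correction Epha7 (0.0209), Plxna4 (0.00473), Sema3a (0.0471), Sema3c (0.0379), Sema4d (0.0424), Slit3 (0.0115), Unc5c (0.0191) and Ntn1 (0.0289) passed as well, and Slit2 (0.0248) and Unc5b (0.0382) after the longest-transcript one.

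Over 30 named genes and 507 values, 391 stayed on their side of the threshold, 41 lost it, 63 gained it and 12 changed sign, all in genes that were not called. Plxna1 turned to 0.080 with library weights, 0.0077 and 0.039 with the median and longest length corrections, and ranged from -0.70 to 0.094 with 1 library left out. Robo1 turned to 0.0013 with upper-quartile scaling, 0.47 with weights and 0.37 and 0.38 with the length corrections, and ranged from -0.34 to 0.51 with 1 library left out. Slit2 ranged from -0.038 to 0.78. At 4.25 normalized units per read, knockdown replicate 2 limits what can be read of genes under a value of about 12.8.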
